A study of Arabidopsis thaliana with 12 samples.

Results

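The subject is 95 rows of an expression array table of Arabidopsis thaliana whose platform annotation gives each row 2 or more genes, mostly relatives within a gene family, and whose intensity was lower after treatment. A row was taken when it had no 0 in any sample, a treated over water ratio of mean intensities of at most 0.667, and a lower treated value in each of the 6 same-number pairs. Of 3439 rows, 870 carry 2 or more genes, 692 of these have no 0, and 98 of these met the ratio and pair conditions, which is 14.2% of them. Leaving out 3 rows that were set aside beforehand gave the 95 rows, called members here. The members were chosen by the treated and water intensities themselves, so their own differences are given as a description and without a test. Of 545 rows with 1 gene and no 0, 98 (18.0%) met the same ratio and pair conditions.

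The treated plants were given staurosporine (2 µM) over 4 h, followed by ascorbate (25 mM, pH 5.5) over another 4 h, and gave 6 samples, replicates 1 to 6. The water plants were kept in water for 8 h (6 samples, replicates 1 to 6). All were wild type of the Columbia 0 ecotype, and the organ is not named in the labels. Staurosporine blocks protein kinases of many kinds, and ascorbate is vitamin C, a reductant that plant cells hold in large amounts. None of the samples analysed here received a single compound or a solution at pH 5.5 without ascorbate, so the parts of the treatment cannot be told apart. Nothing says that replicates came from separate plants, so p-values below measure the spread between samples, which may be technical.

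Plant genomes carry many genes in families that arose by duplication, either side by side on a chromosome or as copies on different chromosomes. A probe can bind the transcripts of several close relatives, so that 1 intensity stands for their sum and cannot say which gene of the row changed. Among families met here, lipid-transfer-like proteins, pectin methylesterase inhibitors, class III peroxidases and GH9 glycosyl hydrolases act in or at the cell wall. C2H2 zinc-finger and ERF proteins are transcription factors, and RING-finger proteins are mostly ubiquitin ligases. Pentatricopeptide-repeat proteins bind organelle transcripts. The gene table names a family member in 7 member rows, and the families of another 63 rows are background knowledge on these loci. For 25 rows no shared family is given, and the row is called by its genes. Fewer cells of a type and less RNA per cell cannot be told apart in such samples.

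Over all samples the mean intensity ran between 0.857 and 1.04, the median between 0.351 and 0.486, and the share of rows at 0 between 10.3% and 15.2%. Signal over background is unknown, and the number of samples limits the precision. Among the 66 pairs of samples, at most 0.0669% of nonzero values were identical. The treated over water ratio had a median of 0.939 over the 2680 rows with no 0, so the table as deposited stood slightly lower after treatment as a whole. Neither the 12 photosynthetic nor the 8 root markers had a row of their own, and the organ was not checked.

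The members had a median ratio of 0.552, between 0.295 and 0.666, and 30 of 95 had a ratio of at most 0.5. Their mean intensity in water had a median of 0.781, and 62 of 95 were below 1. The groups did not overlap in 65 members, where the background is 12.2% over all 3439 rows and 11.8% over the 692 rows with 2 or more genes and no 0. With limma on all rows, 80 members were called lower at an adjusted p under 0.05, where the background is 16.2% over all rows and likewise over the 692. Both counts follow from how the members were chosen, and nothing is read from them. The same holds for such counts over parts of the members below. Averaging samples with adjacent numbers (1 and 2, 3 and 4, 5 and 6) left 27 members called, where the background is 5.29%. Just inside the ratio limit stood the rows for AT4G38550 and AT2G20950 (0.661), for AT3G60490 and AT2G44940 (0.664), and for AT1G63170, AT1G12760 and AT4G11680 (0.666). Just outside stood YUC6 and YUC2 (0.667), AT2G17043, AT2G17080 and AT2G17070 (0.667), and AT5G55980 and AT3G13227 (0.668).

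**Figure D1:**
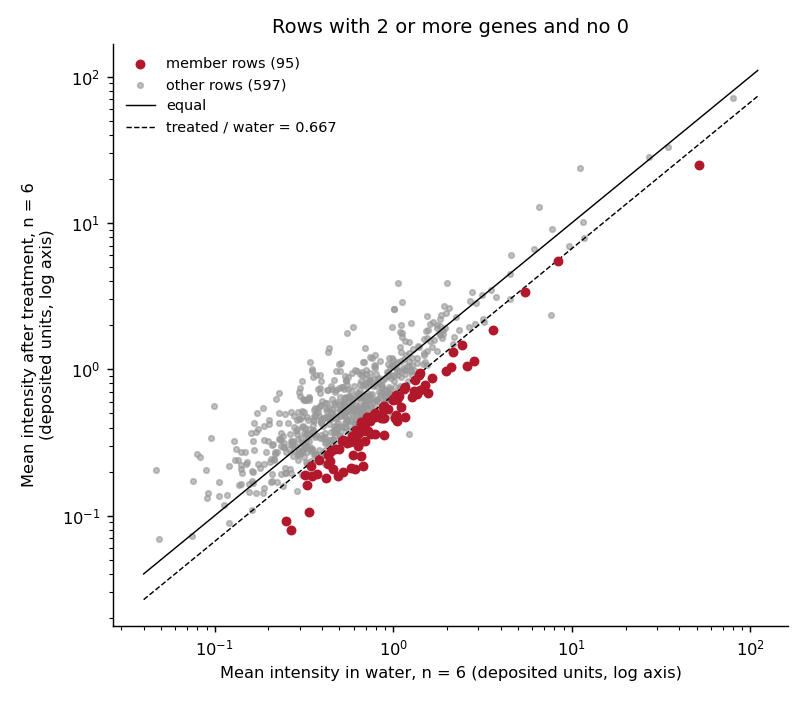
Mean intensity after treatment (vertical) against mean intensity in water (horizontal), both on log axes, for the 692 rows with 2 or more genes and no 0. Each point is 1 row, the 95 members lie at or below the dashed line at a ratio of 0.667, and the brightest of them stands at 24.7 after treatment and 51.6 in water.

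The scale of the samples bears on who counts as a member. When each sample was brought to the same median, 68 rows met the rule, and all 68 were members. Quantile normalization left 70 rows, of which 68 were members. The difference also varied over the series of samples. The members' median ratio was 0.525 in replicates 1 and 2, 0.495 in replicates 3 and 4, and 0.595 in replicates 5 and 6. Over all rows with no 0 the same medians were 0.922, 0.904 and 1.0, so the samples in which the members stood least low were also those in which the whole table did. At most 0.667 were 77, 76 and 62 members in these sets of samples.

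**Figure D2:**
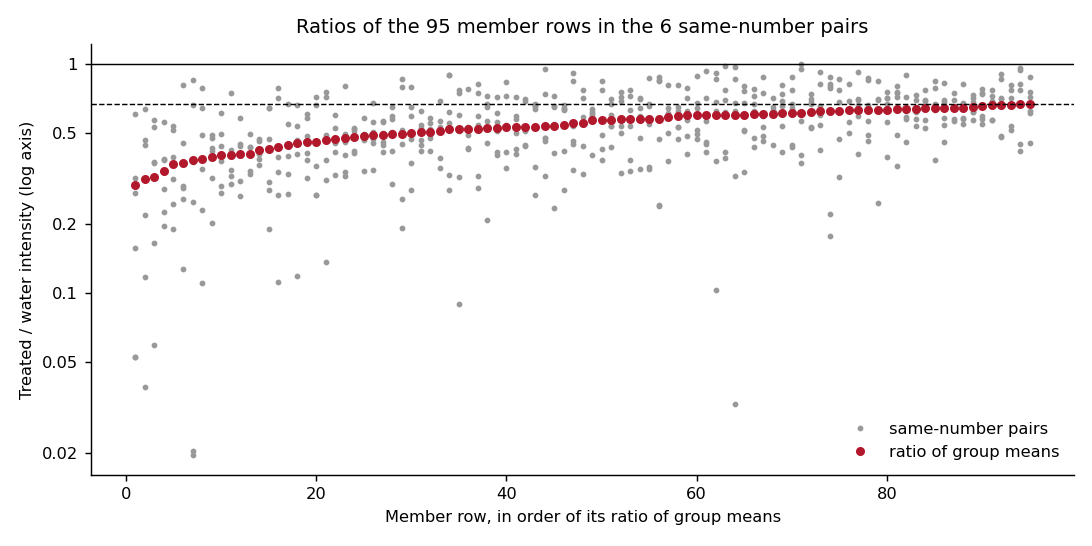
Treated over water ratio on a log axis for the 95 members in order of their ratio of group means. Grey points are the 6 same-number pairs and red points the ratio of group means. Single pairs reach down to 0.0196, and by the rule all lie below 1.

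Intensities from here on are as deposited, given as the lowest, the median and the highest of the 6 samples of a group, and ratios are of group means. Log2 fold changes and correlations are on the quantile-normalized log2 scale of the tests unless said otherwise. The 10 lowest ratios ran between 0.295 and 0.398. Groups did not overlap in 7 of these 10 rows, where the background is 12.2% over all rows. The mean intensities of the 10 rows in water lay between 0.25 and 0.891. The lowest ratio, 0.295, belonged to AT3G43910 and AT2G26840, with 0.0101, 0.0408 and 0.258 in treated samples, against 0.133, 0.248 and 0.430 in water. Its groups overlapped, because 1 treated sample stood within the range of the water samples, and 2 treated values were below 0.0157, the 1st percentile of all positive intensities, so that the ratio rests partly on values near 0. By pairs of replicates its ratio was 0.113, 0.142 and 0.471, so the difference was smallest in replicates 5 and 6. AT1G33780, AT3G29240 and AT3G19780 shared a row at 0.0743, 0.191 and 0.297 in treated samples, against 0.381, 0.456 and 0.730 in water, a ratio of 0.382. Here no treated sample reached the lowest water sample. The row of AT5G24390 and AT3G49350, which encode Rab GTPase-activating proteins of vesicle traffic, had 0.0852, 0.228 and 0.331 in treated samples, against 0.449, 0.618 and 0.707 in water (ratio 0.364). This row too had groups that did not overlap, and its ratio was 0.281, 0.353 and 0.462 in the 3 sets. The other 7 of the 10 belong to families described next.

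**Figure D3:**
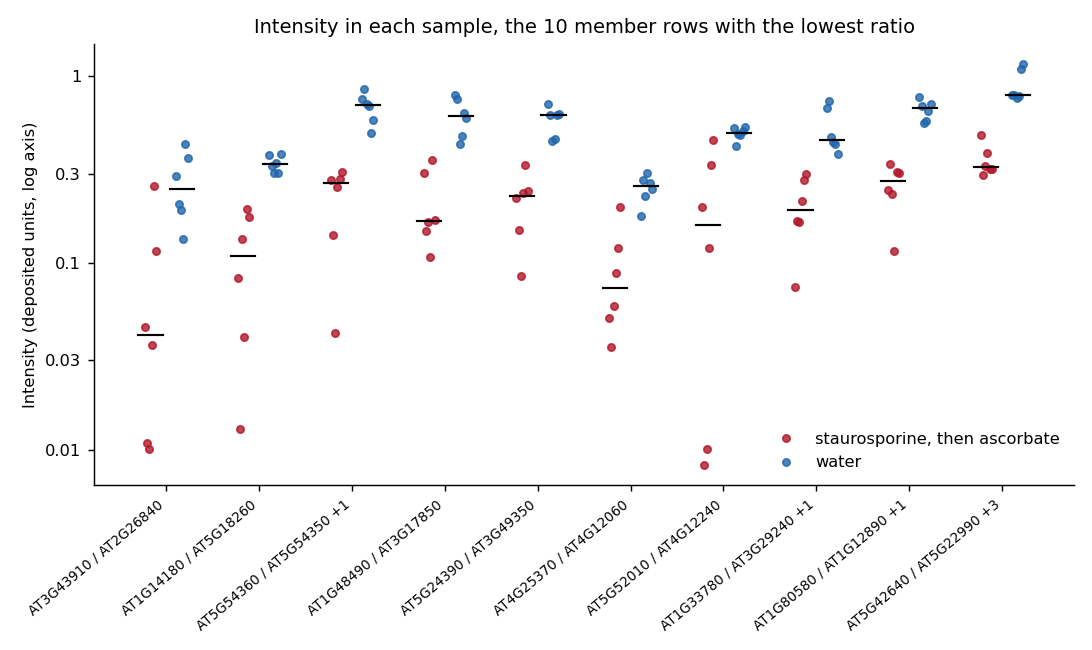
Intensity on a log axis in each sample for the 10 members with the lowest ratio. Red points are treated samples (left of each pair), blue points water samples, and black lines the medians. The treated samples spread more widely than the water samples in several rows, with 2 treated values near 0.01 for AT3G43910 and AT2G26840.

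The brightest member was a row of pectin methylesterase and invertase inhibitors, small secreted proteins that block these cell wall and sugar enzymes. AT5G51520 and AT4G25250 had 19.9, 25.8 and 28.6 in treated samples, against 48.1, 51.4 and 54.7 in water, with means of 24.7 ± 3.81 and 51.6 ± 2.70 (SD, n = 6 each). The groups lay far apart, the ratio was 0.478, and the 6 pairs ran only between 0.408 and 0.522. The row of AT5G58990 and AT5G52370 had 1.54, 1.91 and 2.18 in treated samples, against 2.26, 3.27 and 5.47 in water, a ratio of 0.516. Its groups did not overlap, although the sets differed, at 0.304, 0.584 and 0.893. AT5G27300, AT2G27800 and AT2G27790 shared a row at 2.41, 3.70 and 4.07 in treated samples, against 3.42, 5.23 and 7.77 in water (ratio 0.617). In that row the highest treated samples stood above the lowest water samples.

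Among the members were 3 rows of the lipid-transfer and seed-albumin superfamily, and the groups overlapped in none of them. AT4G00165 and AT2G45180 had 0.729, 1.19 and 1.48 in treated samples, against 2.26, 2.69 and 3.69 in water, a ratio of 0.402. On chromosome 4, AT4G12500 and AT4G12490 lie within 10 genes of each other, and AT4G12520 and AT4G12510 are direct neighbours. AT4G12500 and AT4G12490 had 4.93, 5.33 and 6.46 in treated samples, against 6.94, 7.27 and 11.3 in water (ratio 0.658). AT4G12520 and AT4G12510 had 0.357, 0.438 and 0.644 in treated samples, against 0.649, 0.918 and 1.05 in water (ratio 0.525). The pair with AT4G12500 was the second brightest member and the least lowered of the 3 rows, with 0.879 in replicates 1 and 2 and 0.483 in replicates 3 and 4.

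Class III peroxidases, secreted enzymes that use peroxide in the cell wall, held 2 member rows. AT1G34510 and AT4G26010 had 0.572, 0.649 and 0.900 in treated samples, against 1.23, 1.35 and 1.44 in water, with groups apart and a ratio of 0.502. AT5G64110 and AT5G64100, direct neighbours on chromosome 5, had 0.166, 0.290 and 0.667 in treated samples, against 0.425, 0.688 and 0.792 in water (ratio 0.575). That second row overlapped, and its ratio was 0.241 in replicates 3 and 4, beside 0.671 and 0.846 in the other sets.

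The GH9B glycosyl hydrolases, relatives of the cellulases that act on wall glucans, gave 2 member rows and also rows with a single gene, which the rule did not use. GH9B12, GH9B11, GH9B10 and GH9B9, neighbours on chromosome 2, shared a row at 0.0117, 0.230 and 0.575 in treated samples, against 0.271, 0.373 and 0.669 in water (ratio 0.599). GH9B10 and GH9B9 alone shared a second row at 0.145, 0.197 and 0.333 in treated samples, against 0.249, 0.342 and 0.444 in water (ratio 0.631). Both rows overlapped between groups, neither was called in limma, and 1 treated value of the row with 4 genes was below 0.0157. On its own row GH9B11 had 0.0879, 0.267 and 0.407 in treated samples, against 0.471, 0.603 and 0.924 in water, and the groups did not overlap. GH9B11 fell, with a log2 fold change of -1.26 ± 0.23 (SE, normalized scale, limma adjusted p 0.00176), and stayed past the threshold when adjacent samples were averaged (0.0421). GH9B12 had 0.0830, 0.193 and 0.478 in treated samples, against 0.363, 0.470 and 0.623 in water, and 1 treated sample stood within the water range. It fell by 1.11 on the log2 scale (limma adjusted p 0.0295), but not on means of adjacent samples (0.125). Without any 1 of treated replicates 1 and 6 or water replicates 2, 5 and 6, its limma adjusted p was between 0.0521 and 0.0623. GH9B16, a family gene in no member row, had 0.371, 0.544 and 0.611 in treated samples, against 0.817, 0.859 and 0.931 in water. It fell too, with a log2 fold change of -0.64 ± 0.09 (SE, limma adjusted p 0.000375, and 0.0139 on means of adjacent samples). GH9B8, listed at 0 in 2 treated samples, had medians of 0.0341 in treated samples and 0.0499 in water (limma adjusted p 0.959). Of the 10 rows whose genes all carry a glycosyl hydrolase name, 4 have 1 gene, and 3 of these 4 fell, where the background is 16.2% of all rows. That background covers rows of every kind. Whether the 3 rows measure separate genes, rather than transcripts of shared relatives, was not tested. The remaining 4 rows, with several genes, had ratios of 0.748, 0.788, 1.29 and 1.48.

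Among the members, transcription factor rows were the group with the lowest median ratio, 0.398 over 7 rows, beside 0.552 over all members. The rule chose these rows by this ratio, and transcription factor rows outside the members were not counted. All 4 C2H2 zinc-finger rows among the members had a ratio under 0.5. AT5G54360, AT5G54350 and AT5G54340, neighbours on chromosome 5, had 0.0419, 0.266 and 0.307 in treated samples, against 0.494, 0.699 and 0.855 in water, a ratio of 0.319. AT5G52010 and AT4G12240 had 0.00828, 0.159 and 0.452 in treated samples, against 0.423, 0.497 and 0.533 in water (ratio 0.378). The water samples of that second row were tight while the treated samples spread so widely that the highest of them stood within the water range. Its ratio was 0.134 in replicates 3 and 4 and 0.756 in replicates 5 and 6, and 2 treated values were below 0.0157. The row with the most genes, AT5G42640, AT5G22990, AT4G26030, AT2G18490 and AT2G15740, had 0.296, 0.323 and 0.482 in treated samples, against 0.756, 0.788 and 1.16 in water (ratio 0.398). LATE and KNU, known as LATE FLOWERING and KNUCKLES, had 0.193, 0.389 and 0.468 in treated samples, against 0.567, 0.789 and 0.922 in water (ratio 0.481). The groups were apart in 3 of these 4 C2H2 rows.

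Of 3 member rows of ERF transcription factors, the row with PUCHI, a regulator of organ primordia, had the lowest ratio. PUCHI, AT1G80580 and AT1G12890 had 0.116, 0.272 and 0.338 in treated samples, against 0.559, 0.669 and 0.766 in water, with groups apart (ratio 0.390). AT3G60490 and AT2G44940 stand on 2 member rows, and the rule took each of them for being low. On the first they had 0.408, 0.548 and 0.766 in treated samples, against 0.755, 0.881 and 0.970 in water (ratio 0.636). The second gave 0.798, 0.929 and 1.15 in treated samples, against 1.05, 1.19 and 2.03 in water (ratio 0.664). Both rows overlapped between groups. On the normalized log2 scale their deviations from the group means correlated at 0.392 over the 12 samples. These points share their group, scaling and replicate number.

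Among 4 RING-finger member rows the ratio ranged from 0.314 to 0.666, and 2 had groups apart. AT1G14180 and AT5G18260 had 0.0128, 0.108 and 0.193 in treated samples, against 0.303, 0.335 and 0.380 in water, the second lowest ratio of all members (0.314), with 1 treated value below 0.0157. AT5G38895, AT5G15790 and AT3G02290 had 0.189, 0.416 and 0.505 in treated samples, against 0.630, 0.698 and 0.811 in water (ratio 0.531). Those were the rows with groups apart. AT5G47610 and AT4G17245 had 0.136, 0.613 and 0.713 in treated samples, against 0.707, 0.773 and 0.855 in water (ratio 0.622), and the ratio was 0.198 in replicates 3 and 4, beside 0.791 and 0.842 in the other sets. AT1G63170, AT1G12760 and AT4G11680 had 0.341, 0.472 and 0.630 in treated samples, against 0.567, 0.736 and 0.775 in water (ratio 0.666), the highest ratio of the members.

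Protein kinases held 3 member rows, all with groups apart, where the background is 12.2% over all rows. Kinase rows outside the members were not counted, and a link to the block of kinases by staurosporine was not tested. AT1G48490 and AT3G17850, of the plant AGC kinases, had 0.107, 0.167 and 0.354 in treated samples, against 0.432, 0.612 and 0.789 in water (ratio 0.339). AT4G32000 and AT2G25220 had 0.314, 0.441 and 0.880 in treated samples, against 0.973, 1.03 and 1.1 in water (ratio 0.473). AT1G80870, AT5G51770 and AT4G25390 had 0.104, 0.251 and 0.277 in treated samples, against 0.383, 0.398 and 0.542 in water (ratio 0.523). In the last row a single treated sample, replicate 1, stood well below the rest. The array holds another row with AT5G51770 and AT4G25390, together with AT2G45590, and that row was higher after treatment, as given below.

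Among signalling and sorting rows that were single members of their family, ELC, ELC-Like and AT2G38830, of the ubiquitin-sorting machinery, had 0.208, 0.547 and 0.852 in treated samples, against 0.381, 1.04 and 1.09 in water (ratio 0.574), and the groups overlapped, with water replicate 4 the lowest of the water samples. A row of ELC and ELC-Like without AT2G38830, which is no member, averaged 2.35 ± 0.578 in treated samples and 7.65 ± 0.641 in water (SD, n = 6 each).

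**Figure D4:**
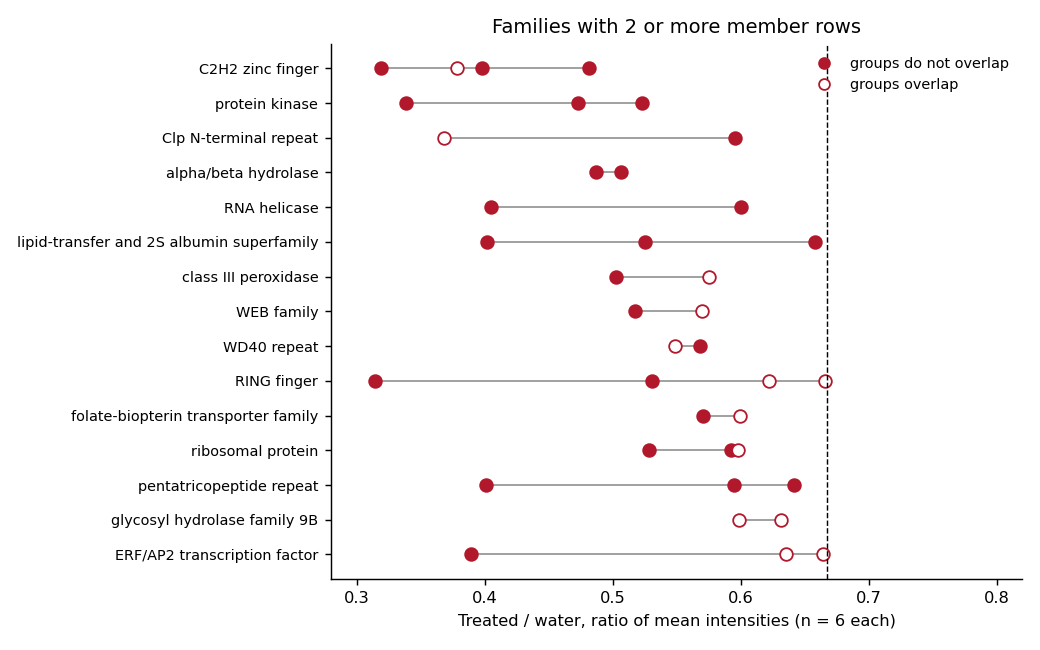
Treated over water ratio of mean intensities (horizontal) for the 15 families with 2 or more member rows, 39 rows in all, in order of the family median. Each circle is 1 row, filled where the groups do not overlap. C2H2 zinc fingers stand lowest, between 0.319 and 0.481, and ERF factors highest by median.

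RNA-binding and ribosomal families made up 12 members, with a median ratio of 0.594. Pentatricopeptide-repeat proteins, which guide editing, splicing and stability of organelle transcripts, had 3 rows with groups apart in each. AT5G66500, AT4G39952 and AT3G03580 had 0.356, 0.452 and 0.652 in treated samples, against 0.851, 1.25 and 1.40 in water (ratio 0.401). AT5G15980 and AT3G02490 had 0.332, 0.466 and 0.637 in treated samples, against 0.754, 0.815 and 0.899 in water (ratio 0.595). OTP86, an organelle transcript processing factor, and AT4G21300 had 0.650, 0.704 and 0.910 in treated samples, against 1.02, 1.11 and 1.40 in water (ratio 0.642). The OTP86 row was even over the sets, at 0.654, 0.624 and 0.645.

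Both RNA helicase rows among the members also had groups apart. RH39, a DEAD-box helicase, and AT3G06980 had 0.841, 1.08 and 1.25 in treated samples, against 2.48, 2.59 and 2.73 in water (ratio 0.405). The water samples of this row lay close together, with an SD of 0.0871 on a mean of 2.59. AT5G10370 and AT4G01020, of the DEAH type, had 0.315, 0.449 and 0.520 in treated samples, against 0.587, 0.749 and 0.943 in water (ratio 0.600). Ribosomal proteins gave 3 rows, each of another protein. AT1G08845, AT5G27820 and AT3G20230 had 0.732, 0.893 and 0.954 in treated samples, against 1.14, 1.61 and 2.22 in water (ratio 0.528). AT3G10610 and AT2G05220, of the small subunit, had 0.515, 0.599 and 0.793 in treated samples, against 0.962, 0.995 and 1.28 in water (ratio 0.592). AT1G52300 and AT3G16080, of the large subunit, had 0.396, 0.453 and 0.642 in treated samples, against 0.613, 0.668 and 1.12 in water (ratio 0.598). Only that last row overlapped among the 3, through treated replicate 5. A row of AT1G52300 and AT3G16080 together with AT1G15250, which is no member, had a ratio of 1.45.

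AT4G25370 and AT4G12060 encode accessory proteins of the chloroplast Clp protease and stand on 2 member rows. The dimmer row had 0.0352, 0.0734 and 0.198 in treated samples, against 0.177, 0.257 and 0.303 in water (ratio 0.368). The brighter row had 0.519, 0.585 and 0.777 in treated samples, against 0.828, 1.12 and 1.22 in water (ratio 0.595). That both rows were lower is set by the rule, and only the brighter one had groups apart. Their deviations on the normalized log2 scale correlated at 0.234 over the 12 samples.

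Folate and biopterin transporter relatives had 2 member rows. AT1G64890 and AT5G54860 had 0.203, 0.337 and 0.372 in treated samples, against 0.456, 0.536 and 0.693 in water (ratio 0.571). AT1G04570 and AT2G33280 had 0.175, 0.364 and 0.672 in treated samples, against 0.475, 0.547 and 0.921 in water (ratio 0.600), and only here did the groups overlap. A row of AT1G64890, AT1G04570 and AT2G33280, which is no member, had a ratio of 1.17. Alpha/beta hydrolases had 2 rows with groups apart. AT1G73480 and AT1G18360 had 0.272, 0.296 and 0.405 in treated samples, against 0.505, 0.603 and 0.838 in water (ratio 0.487). AT1G73750 and AT1G15060 had 0.475, 0.771 and 0.969 in treated samples, against 1.26, 1.39 and 1.57 in water (ratio 0.507).

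WEB proteins, coiled-coil proteins whose founders act in chloroplast movement, had 2 rows. AT5G16730, AT4G40020 and AT3G02930 had 0.284, 0.482 and 0.673 in treated samples, against 0.531, 0.895 and 1.18 in water (ratio 0.570). AT1G65010 and AT4G27595 had 0.125, 0.202 and 0.230 in treated samples, against 0.294, 0.389 and 0.442 in water (ratio 0.518). Groups overlapped in the row with AT5G16730 and not in the other. A row of AT5G16730 and AT3G02930 without AT4G40020, which is no member, had a ratio of 1.29. WD40-repeat proteins, scaffolds of protein complexes, had 2 rows. AT3G33530 and AT2G26610 had 0.272, 0.389 and 0.442 in treated samples, against 0.612, 0.665 and 0.717 in water, with groups apart (ratio 0.568). AT1G24530, AT1G24130 and AT5G50120 had 0.450, 0.715 and 0.984 in treated samples, against 0.896, 1.21 and 2.2 in water (ratio 0.549). Without water replicate 2, the highest sample of that row, its ratio was 0.636.

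The other 50 members, the ELC row included, had ratios between 0.420 and 0.661 (median 0.574) and mean intensities in water between 0.320 and 2.41. Groups were apart in 35 of the 50, where the background is 12.2% over all rows. Among the 50, 5 rows act in protein folding and turnover. FKBP-type prolyl isomerases AT1G73655 and AT1G18170 had a ratio of 0.468, the cyclophilins AT3G66654 and AT2G47320 0.62, and the ATG4 proteases of autophagy AT3G59950 and AT2G44140 0.624. Of 6 enzyme rows, FaTA and AT4G13050, which release fatty acids from their carrier in the plastid, had means of 0.468 ± 0.0878 in treated samples and 1.03 ± 0.0737 in water (SD, n = 6 each). Rhodanese-domain proteins AT3G08920 and AT2G42220 had a ratio of 0.452, and the glutaredoxins AT5G11930 and AT4G33040, small thiol oxidoreductases, 0.607. The glutaredoxin row averaged 1.46 ± 0.181 in treated samples and 2.41 ± 0.536 in water and was among the 8 brightest members. Of 3 transporter rows, the MATE transporters AT4G38380 and AT2G38330 had a ratio of 0.552. CSA1 and AT3G51570, of the TIR-type immune receptors, had a ratio of 0.536, and MMP and AT1G24140, matrix metalloproteinases, 0.568. The row with OPS (OCTOPUS, a factor of phloem differentiation), AT5G01170 and AT2G38070 stood at 0.641. The row of AT1G79060, AT1G56020 and AT3G12970, also among the 8 brightest, averaged 1.32 ± 0.150 in treated samples and 2.17 ± 0.630 in water. The 21 rows of these 50 with no shared family given had ratios between 0.420 and 0.649.

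The genes of most members lie on different chromosomes. Of the 95 members, 70 have 2 genes, 21 have 3, 3 have 4 and 1 has 5, which makes 214 different protein-coding genes, all matched in the TAIR10.1 gene table. In 67 members (70.5%) the genes lie on more than 1 chromosome, beside 71.5% of all 692 rows with 2 or more genes and no 0. In 14 members (14.7%, beside 12.1%) some of the genes are direct neighbours among protein-coding genes, and in 19 (20%, beside 16.5%) they lie within 10 genes of each other. AT5G53486 and AT5G53490, and AT1G61688 and AT1G61690, are neighbours to which no shared family is given here, and whether they are paralogs was not checked. Chromosomes 1 to 5 hold 49, 40, 38, 39 and 48 of the member genes.

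Genes of the members are also measured on rows that are not members. There were 34 such rows outside the members and the rows set aside, touching 32 members, and 12 of them had a 0 in some sample. Of the 22 with no 0, 11 had a ratio below 1 and 11 above 1, with a median of 1.0 between 0.400 and 2.57, beside 0.552 for the members and 0.939 for all rows with no 0. In 3 of the 22 the ratio was at or under 0.667, and all 3 were rows with a single gene. Rows with several genes that met the rule are members or were set aside, and so could not be among the 22. The absence of such rows is set by the rule, and nothing is read from it. Members were chosen as low, and the rows with several genes among the 22 are those that did not meet the rule. The 2 medians are therefore set side by side only.

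Of these rows, 9 are annotated with exactly the genes of a member, and 5 of the 9 had no 0. Their ratios lay between 0.850 and 1.24, and none of the 5 was at or under 0.667. Rows with the same genes that met the rule are members and were not counted here. Such were the rows of AT3G60490 and AT2G44940 (0.636 and 0.664) and of AT4G25370 and AT4G12060 (0.368 and 0.595). AT3G59950 and AT2G44140 averaged 0.872 ± 0.318 in treated samples and 0.706 ± 0.114 in water on their second row, a ratio of 1.24 beside 0.624 on the member row. AT1G71970 and AT1G22680 averaged 0.50 ± 0.10 in treated samples and 0.454 ± 0.0935 in water, a ratio of 1.1 beside 0.493. For both gene pairs the mean of the second row was higher in treated samples, although the groups overlapped. AT5G52010 and AT4G12240 averaged 0.989 ± 0.521 in treated samples and 1.16 ± 0.215 in water, a ratio of 0.850 beside 0.378 (SD, n = 6 each). The remaining 2 rows, of AT1G10890 and AT5G13340 and of AT5G08400 and AT4G29400, had ratios of 1.08 and 0.889 beside 0.585 and 0.628. For these 5 gene sets the same names thus stood on rows with different treated over water ratios. How often duplicate rows differ cannot be read from them, because the rule took out those that were low on both rows.

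A kinase row had the highest ratio of the 22. AT5G51770, AT4G25390 and AT2G45590 averaged 2.59 ± 0.651 in treated samples and 1.01 ± 0.165 in water (SD, n = 6 each), a ratio of 2.57 with groups apart, beside 0.523 on the member row that shares AT5G51770 and AT4G25390. The 2 rows differ by AT2G45590 and AT1G80870 in their annotation. Of the 22 rows, 11 have 2 or more genes and share genes with a member without carrying the same set. Of these 11, 8 had a ratio above 1 and 3 below 1, with a median of 1.17. Rows of this kind that met the rule are members and are not counted here. Among the rows below 1, the row of AT3G33528, AT3G33530 and AT2G26610 averaged 1.67 ± 0.249 in treated samples and 2.19 ± 0.299 in water (ratio 0.762), lower as its member row was. The second row of AT5G54360 and AT5G54350, without AT5G54340, had a ratio of 0.675 beside 0.319.

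There are 8 rows that carry a single gene of a member, which the rule did not use. Besides GH9B11 and GH9B12, AT4G32340, of the tetratricopeptide-repeat proteins, had 0.167, 0.237 and 0.302 in treated samples, against 0.329, 0.464 and 0.577 in water, and the groups did not overlap. It fell, with a log2 fold change of -1.04 ± 0.31 (SE, limma adjusted p 0.0245), and its ratio of 0.501 stood beside 0.504 on the member row with AT1G80133, AT1G80130 and AT5G20190. On means of adjacent samples its limma adjusted p was 0.164. Its log2 fold change on the normalized scale, not that of the deposited intensities, was -0.56, -0.68 and -1.87 in the 3 sets. The limma adjusted p was 0.0520 without treated replicate 6 and 0.0542 without water replicate 3. The other single-gene rows did not pass. AT1G12800, with an RNA-binding domain, had medians of 0.912 in treated samples and 1.2 in water (limma adjusted p 0.909). AT2G38070 had medians of 0.314 in treated samples and 0.329 in water (limma adjusted p 0.475). AT5G06990 had medians of 0.566 in treated samples and 0.604 in water (limma adjusted p 1.0). AT1G08845 had medians of 0.331 in treated samples and 0.358 in water and was listed at 0 in 1 treated sample (limma adjusted p 0.642). AT1G24530 was listed at 0 in all 12 samples. With the GH9B genes included, 9 rows with a single gene were tested, of which 4 fell, 0 rose and 5 did not pass in limma, where the background is 32.9% of all rows in either direction, and 2 fell on means of adjacent samples.

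**Figure D5:**
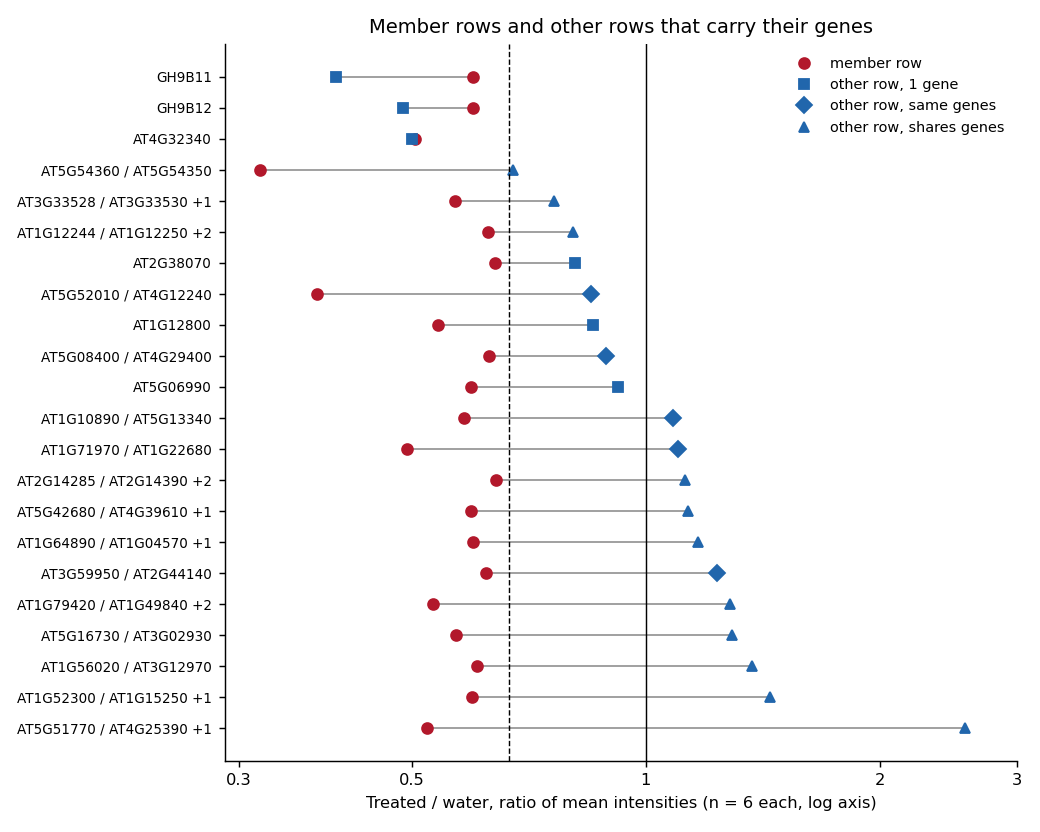
Treated over water ratio of mean intensities on a log axis for the 22 other rows with no 0 that carry genes of the members (blue, by kind), joined to the member row that shares the genes (red; the first such member where there are several). The red points lie at or below 0.666 by the rule, and 11 of the 22 blue points lie above 1. Rows with several genes that met the rule cannot be among the blue points.

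Within the groups the members' values, on the normalized log2 scale, showed little correlation. After the group mean was taken off, the correlation between 2 members over the 12 samples had a median of 0.0157, and the middle of its distribution ran from -0.284 to 0.311. For the other 597 rows with 2 or more genes and no 0 the median was -0.00122, from -0.296 to 0.306. These points share their group, scaling and replicate number, and no test is given.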

How the data were processed

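The table holds 1 linear intensity per row and sample, as the authors deposited it. The sources used here do not give how they scanned, corrected and scaled the arrays. The members and lists were chosen with earlier results of these data known. Ratios are of mean deposited intensities, treated over water.

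For tests, a 0 was replaced by 0.0157, the 1st percentile of positive intensities, before taking log2. The medians of the samples then ranged over 0.47, above the limit of 0.1, so values were quantile-normalized, which hides a shift of most rows one way. limma 3.58.1 (R 4.3.3) was fitted to all 3439 rows (lmFit, eBayes, group only, Benjamini-Hochberg, threshold 0.05) and checked on simulated data. Figures were drawn with matplotlib 3.10.9.

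Rows were named through the platform annotation, which can be old, and the TAIR10.1 gene table. Of 3439 rows, 692 have 1 gene, 870 several and 1877 none listed. The gene table gives no descriptions, so lists by term rest on symbols and synonyms. Of the members, the 12 lowest ratios, the 8 brightest in water and each family with 2 or more rows were named by rule, and other members and rows that share genes were named after their values were seen. Coordinates and sequences are not used here.

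Deviations of same-numbered treated and water samples from their group means correlated between 0.302 and 0.425, each over 0.1. The numbers were therefore taken to pair the samples, from this check and not from the labels. Treated and water samples of different numbers were not compared, so the check cannot tell pairing by number from pairing by set of adjacent numbers. Adjacent numbers within a group correlated between -0.0876 and 0.642, and other pairs of a group between -0.404 and -0.197. Alternatives were other scalings, the replicate block, a variance trend, a pseudocount (0.0835) or a higher floor (10th percentile) for low values, dropping the dimmest 25% of rows, means of adjacent samples, each sample left out, and other forms of the rule.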

Additional observations from a re-analysis of the deposited data

Results flagged for a closer look

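In 112 groups of 6 values examined, 6 held 1 sample far from the others (5.36%), where chance gives about 5%. For the ribosomal protein genes AT1G52300 and AT3G16080, treated replicate 5 stood at 0.642 and the other treated samples between 0.396 and 0.471. For the kinase genes AT1G80870, AT5G51770 and AT4G25390, treated replicate 1 stood at 0.104 and the others between 0.216 and 0.277. For the kinase genes AT4G32000 and AT2G25220, treated replicate 6 stood at 0.880 and the others between 0.314 and 0.518. For AT1G79060, AT1G56020 and AT3G12970, treated replicate 1 stood at 1.60 and the others between 1.2 and 1.35. For the WD40 genes AT1G24530, AT1G24130 and AT5G50120, water replicate 2 stood at 2.2 and the other water samples between 0.896 and 1.31. For AT1G08845 on its own row, treated replicate 3 stood at 1.44 and the others between 0 and 0.427. Without the sample in question the member rows among these had ratios between 0.397 and 0.636.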

How the results depend on the processing

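A ratio limit of 0.5 gave 30 rows with a median ratio of 0.430, and a limit of 0.8 gave 154 rows with a median of 0.626. With 1 sample left out in turn the rule took 90 to 105 rows, the members' median ratio lay between 0.532 and 0.579, limma called 73 to 79 members, and 1010 to 1158 rows of the table changed, against 1131 with all samples. On means of adjacent samples 27 members and 418 rows of the table were called, and 2 of the 9 single-gene rows, as without treated replicate 6 (range 2 to 4). With the replicate number as a block 83 members were called lower, where the background is 598 of 3439 rows (17.4%), 1252 rows changed, and 4 single-gene rows fell, as without the block. As deposited, 39.2% of changed rows were higher, against 50.7% after normalization. Of the 9 single-gene rows tested, those whose log2 fold change turned sign were not called. AT5G06990 turned to 0.0044 with median centring and GH9B8 to 0.0553 with the floor at the 10th percentile. With 1 sample left out, AT1G08845 ran from -1.19 to 0.14, AT1G12800 from -0.24 to 0.0551, AT5G06990 from -0.10 to 0.0761 and GH9B8 from -0.45 to 0.25. The cause of these changes was not tested. GH9B11 and GH9B16 kept their direction and stayed past the threshold in the alternatives run. Values near 0 limit the dim rows, since signal over background is unknown.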

Other observations

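Of 26 lists of gene names by term, 19 had no row whose genes all match, and of the other 7 only the glycosyl hydrolases held members. The lists rest on symbols and synonyms. The member rows of kinases, ribosomal proteins, RING fingers and class III peroxidases described above are therefore in none of them. The p-values of the rows below treat all samples as separate. On means of adjacent samples 418 rows of the table were called, against 1131, and for the rows below that fit is not given. The histone list had 2 rows with a single gene. AT1G09200, which encodes a core histone, fell and averaged 0.393 ± 0.0812 in treated samples and 0.581 ± 0.0329 in water (SD, n = 6 each, limma adjusted p 0.0201). AT5G65360 averaged 0.371 ± 0.102 in treated samples and 0.496 ± 0.0688 in water (limma adjusted p 0.190). Histone rows with several genes included 2 that rose. AT5G10400 and AT5G10390 averaged 0.510 ± 0.0854 in treated samples and 0.292 ± 0.0176 in water (limma adjusted p 0.000799). AT5G10980, AT4G40040 and AT4G40030 averaged 1.19 ± 0.202 in treated samples and 0.759 ± 0.204 in water (limma adjusted p 0.00269).

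The light-harvesting gene LHB1B2 fell and averaged 1.29 ± 0.0867 in treated samples and 2.18 ± 0.619 in water (limma adjusted p 0.00512). NTRC, a plastid thioredoxin reductase, averaged 0.391 ± 0.128 in treated samples and 0.506 ± 0.130 in water (limma adjusted p 0.330). The light-harvesting row of LHCB4.1, LHCB4.2 and LHCB4.3 averaged 0.267 ± 0.148 in treated samples and 0.405 ± 0.0597 in water and did not pass (limma adjusted p 0.134). A thioredoxin row of TO2 and TO1 averaged 0.527 in treated samples and was listed at 0 in 5 of 6 water samples (limma adjusted p 4.41e-09). For the test these 5 values were all replaced by the same low value before normalization. The spread of the water samples, and with it the size of this p-value, therefore depends on the replacement and is not read further. A second row with the same 2 genes did not pass (limma adjusted p 0.814). The thioredoxin row of TY1, THX and ty2 rose and averaged 0.584 ± 0.113 in treated samples and 0.424 ± 0.0754 in water (limma adjusted p 0.00237). UBP21 and UBP20, of the ubiquitin list, shared a row that fell and was listed at 0 in 2 samples (limma adjusted p 0.0486). The peroxidase, ubiquitin and expansin lists had no row with 1 gene, and no other row of these lists passed in limma. These rows were named after their values were seen.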
